A study of Mus musculus with 5 samples.

Results

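Tug1 (taurine upregulated gene 1, gene ID 544752) is a long noncoding RNA gene transcribed from the minus strand of mouse chromosome 11, at chr11:3639785-3648814 in mm10, a span of 9030 bases. Peaks were taken as belonging to it where they overlapped that span or where the deposited tables named Tug1. This gave 122 of the 43658 peaks in the 3 deposited lists, namely 46 of 10916 in the CCT3 list, 75 of 18650 in the CCT3-2 list and 1 of 14092 in the PABPC1 list. The lists come from eCLIP, a method that fragments crosslinked RNA with RNase, pulls it down with an antibody to the protein of interest and sequences it beside an input library that skips the pull-down. The 5 samples came from the mouse line GC-2spd(ts), whose labels call it spermatocyte cells. They comprised 2 samples labelled as CCT3 (titled CCT3 and CCT3-2), 1 PABPC1 immunoprecipitation, 1 CCT3 input and 1 PABPC1 input. No treatment or genotype difference is given in the labels, so every sample is the same untreated line as far as the labels go, and a line in culture is a limited model of spermatocytes in the testis. The labels of CCT3 and CCT3-2 carry the same library name, and the series holds 1 CCT3 input. The lists of CCT3 and CCT3-2 may therefore be 2 peak calls of 1 library, and their likeness below is no replication. They are not shown to be independent, they were not averaged, and differences between the proteins stand without a replicate. Read totals were not used here. The depth of each library is therefore unknown, and a stretch with no peak may still be bound. RNA levels were not measured either, and the cell type was not checked against its markers.

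CCT3 is a subunit of TRiC/CCT, the ring-shaped chaperonin that folds actin, tubulin and other proteins in the cytosol. PABPC1 is the main cytoplasmic poly(A)-binding protein, which coats the poly(A) tails of mRNAs and acts in their translation and decay. Tug1 is a conserved and widely expressed long noncoding RNA, spliced and polyadenylated, that is found in the nucleus and in the cytoplasm, in part with introns retained. Mice that lack it have sterile males with defective sperm. It lies head to head with Morc2a, a protein-coding gene for a chromatin-silencing ATPase, from which it is transcribed in the opposite direction.

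The start of Tug1 is shown, with the sequence before it, because the peaks stop short of the start. The sequence is the RefSeq promoter window of Tug1 (GRCm38.p6, chr11:3648765-3649064, minus strand), written 5′ to 3′, with the 250 bases before the start in lower case and the first 50 transcribed bases in capitals.
Tug1: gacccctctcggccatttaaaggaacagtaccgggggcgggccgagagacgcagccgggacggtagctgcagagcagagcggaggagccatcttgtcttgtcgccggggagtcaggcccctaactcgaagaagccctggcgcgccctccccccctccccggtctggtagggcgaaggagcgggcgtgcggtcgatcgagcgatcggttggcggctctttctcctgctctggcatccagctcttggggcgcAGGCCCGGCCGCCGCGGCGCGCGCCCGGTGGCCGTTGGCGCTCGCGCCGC
Of these 300 bases 71.3% were G or C, against a median of 52.7% over the 32851 promoter windows of the RefSeq table, of which 7.36% had a higher share. The window held 37 CG dinucleotides, against a median of 7, and 4.95% of windows held more. No peak of any list lay in the window. Since eCLIP reads RNA, for Tug1 this concerns only the 50 transcribed bases, and no link to the base composition was tested. Between the last base of the window and the first peak of Tug1 lay 125 bases in CCT3 and 126 bases in CCT3-2. Sequences of the peaks themselves were not used here.

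CCT3 peaks were spread along nearly the whole length of Tug1, with 2 empty stretches of over 1000 bases. Peaks at most 100 bases apart formed 15 clusters in CCT3 and 13 in CCT3-2. For description the peaks are grouped below into 3 zones, in which neighbouring peaks are at most 1000 bases apart. That distance was chosen after seeing the data, and spaces of up to 524 bases in CCT3 lie inside the zones. Positions below are counted from the 5′ end of the span with introns included, so a share of the span understates the share of a spliced RNA. Within the span lay 44 CCT3 peaks, 73 CCT3-2 peaks and 1 PABPC1 peak. The first CCT3 peak began at base 176 and the last ended at base 8786, and for CCT3-2 these were bases 177 and 8790. This left 175 bases at the 5′ end and 244 at the 3′ end without a CCT3 peak, against 176 and 240 for CCT3-2. Peaks were balanced about the middle of the span, with 21 of 44 CCT3 midpoints (47.7%) and 37 of 73 CCT3-2 midpoints (50.7%) nearer to the 5′ end than to the 3′ end. The lists covered 2433 bases (26.9% of the span) in CCT3, 2716 bases (30.1%) in CCT3-2 and 31 bases (0.343%) in PABPC1.

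**Figure D1:**
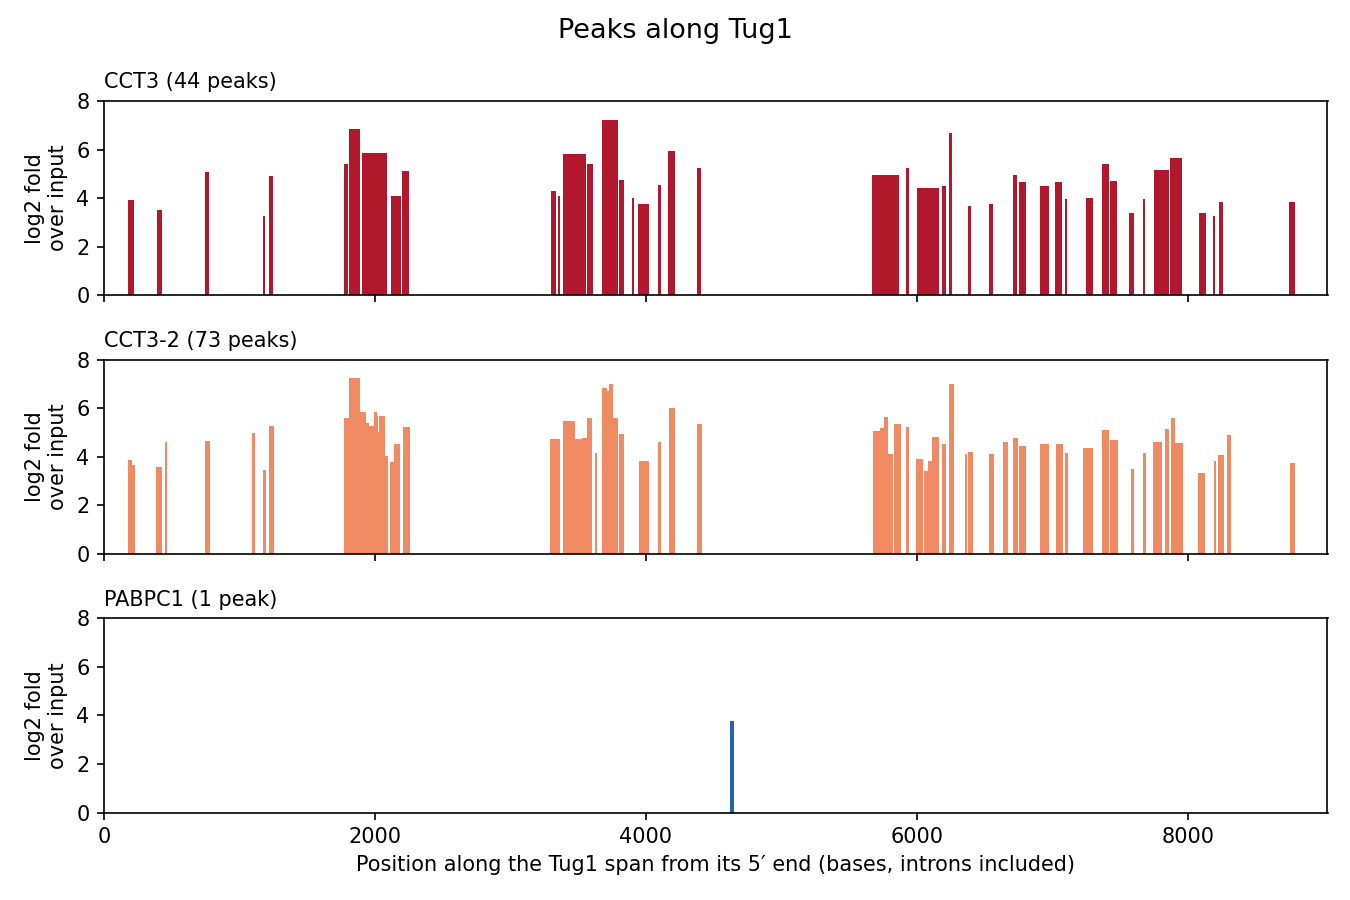
Peaks along Tug1 in each list. Each bar is 1 peak, drawn at its place from the 5′ end of the 9030-base span (horizontal axis, bases, introns included) with the authors' log2 fold over input as its height. The 44 CCT3 and 73 CCT3-2 peaks fall in the same 3 zones, and the single PABPC1 peak stands in the widest space between them.

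The zone nearest to the 5′ end ran from base 176 to 2253 in the CCT3 list and held 10 of its peaks, with 27.3% of its bases covered and a median log2 fold of 5.01. In CCT3-2 the same zone ran from base 177 to 2257 with 21 peaks, 32.0% covered. Its peaks were unevenly placed. A dense group of 5 CCT3 peaks between bases 1770 and 2253 covered 86.8% of those 484 bases. The highest of the group, at bases 1810 to 1889 (chr11:3646926-3647005), had a log2 fold of 6.85 in CCT3 and 7.24 in CCT3-2, the highest Tug1 value of the CCT3-2 list. The 5 CCT3 peaks nearer to the 5′ end lay alone or in a pair, with log2 folds from 3.27 to 5.08, a range that overlaps the 4.08 to 6.85 of the dense group. In CCT3-2 these ranges were 3.47 to 5.25 and 3.77 to 7.24.

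The middle zone was the most densely covered of the 3. It ran from base 3296 to 4405 in CCT3, with 11 peaks over 55.9% of its bases and a median log2 fold of 4.76. In CCT3-2 it ran from base 3292 to 4412, with 16 peaks over 57.4% and a median of 5.14. It held the highest CCT3 fold of the gene, 7.22 with a −log10 p of 62.2, at bases 3672 to 3790 (chr11:3645025-3645143). Over that peak the CCT3-2 list gave 4 adjoining peaks with log2 folds from 5.60 to 7.01. Beside it, at bases 3385 to 3555, lay the longest stretch covered in both lists without a break, 171 bases (chr11:3645260-3645430), with a log2 fold of 5.80 in CCT3 and up to 5.45 in CCT3-2.

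The zone nearest to the 3′ end was the longest. In CCT3 it ran from base 5666 to 8786, with 23 peaks over 39.9% of its bases and a median log2 fold of 4.50. In CCT3-2 it ran from base 5672 to 8790, with 36 peaks over 45.1% and a median of 4.54. Its highest peak was a narrow one of 24 bases at 6238 to 6261 (chr11:3642554-3642577), with a log2 fold of 6.69 in CCT3 and 6.98 in CCT3-2. Towards the 3′ end, the 3 CCT3 peaks at bases 8082 to 8256 and the last one at 8748 to 8786 had log2 folds between 3.28 and 3.86. CCT3-2 gave 5 peaks from base 8076 on, at 3.35 to 4.89, the highest being one at bases 8286 to 8319 that has no CCT3 counterpart. Over the last of 10 equal bins along the span, the median log2 fold was 3.82 in CCT3 and 3.96 in CCT3-2, and over the first bin 3.93 in CCT3 and 3.88 in CCT3-2.

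**Figure D2:**
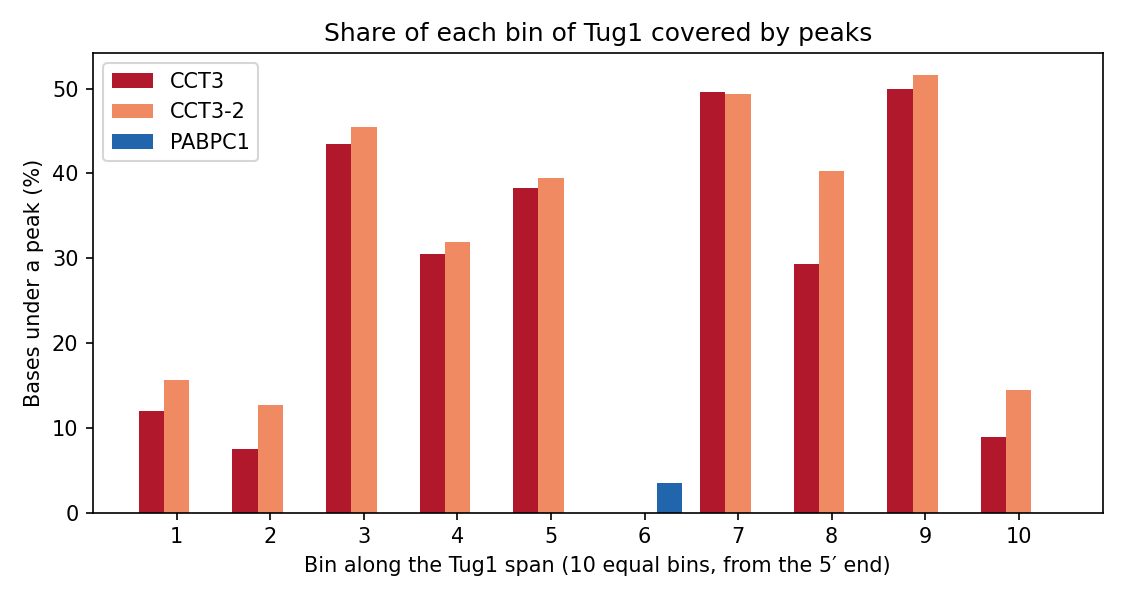
Share of bases under a peak (vertical axis, %) in each of 10 equal bins along the Tug1 span, from the 5′ end on the left, for the CCT3, CCT3-2 and PABPC1 lists. CCT3 coverage runs from 7.53% in bin 2 to 49.9% in bin 9, apart from bin 6, which holds no CCT3 or CCT3-2 peak and the 1 PABPC1 peak.

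In these bins coverage was highest in bin 9, at 49.9% in CCT3 and 51.6% in CCT3-2, and in bin 7, at 49.6% in CCT3 and 49.4% in CCT3-2. Bin 3 came next, at 43.4% in CCT3 and 45.4% in CCT3-2. The ends were sparse, with 7.53% of bin 2 covered in CCT3 and 12.7% in CCT3-2, and 8.86% of bin 10 in CCT3 and 14.4% in CCT3-2. Bin 1 held 3 CCT3 peaks and 5 CCT3-2 peaks. Bin 6, bases 4516 to 5418, had no peak of either CCT3 list.

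The spaces without a peak were shared by the CCT3 lists. The longest was 1260 bases in CCT3 (bases 4406 to 5665) and 1259 bases in CCT3-2 (4413 to 5671). The next was 1042 bases in CCT3 (2254 to 3295) and 1034 bases in CCT3-2 (2258 to 3291). After these came 524 bases in CCT3 and 518 in CCT3-2 just 5′ of the dense group in the first zone, then 491 bases in CCT3 and 431 in CCT3-2 near the 3′ end. The 4 stretches longer than 400 bases that neither list covered took up 3233 bases, or 35.8% of the span. A CCT3 space of 401 bases (775 to 1175) was broken in CCT3-2 by a peak at bases 1094 to 1111. Over all spaces, the long ones included, the median was 62 bases for the 45 in CCT3 and 51 bases for the 52 in CCT3-2.

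In the transcript to which most CCT3 peaks were annotated, the second longest space lies between peaks of different exons and the longest between peaks of the same exon. In the CCT3 table all 44 peaks within the span were annotated as exonic. The 5 peaks at bases 1770 to 2253 were placed in exon 1 of 2 of the transcript ENSMUST00000132077.3, and the 34 peaks at bases 3296 to 8786 in exon 2 of 2. The space of 1042 bases thus lies between peaks of the first and the second exon of this transcript, and the space of 1260 bases between peaks that both belong to its exon 2. Exon coordinates were not used here, so the exact boundaries are not given. Whether either space meets an exon boundary of another listed Tug1 transcript is not known. Median log2 folds were 5.40 in exon 1 and 4.54 in exon 2 for CCT3, and 5.39 over 13 peaks and 4.62 over 52 peaks for CCT3-2.

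The 5 CCT3 peaks closest to the 5′ end lay upstream of that transcript, whose listed start is at base 1279. A pair at bases 1176 to 1245 was annotated to exon 1 of 2 of ENSMUST00000226724.1, which begins at base 909. The other 3, at bases 176 to 774, were annotated to the single exon of ENSMUST00000193809.1, for which the table gives no gene ID, although it names Tug1 for the peaks. A longer listed Tug1 transcript, ENSMUST00000144852.1, spans bases 3 to 9021. In the CCT3-2 table the same peaks carry another class: 21 of its 73 peaks were called promoter, among them all 13 in the stretch that the CCT3 table places in exon 1 of ENSMUST00000132077.3.

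Every CCT3 peak in Tug1 had a counterpart in the CCT3-2 list. All 44 overlapped a CCT3-2 peak by at least 1 base, against 89.9% of all CCT3 peaks, and in return 67 of the 73 CCT3-2 peaks (91.8%) met a CCT3 peak, against 64.3% of the whole CCT3-2 list. No pair had identical coordinates. The outer edges differed by a median of 3 bases, with 81 of 88 edges (92.0%) within 10 bases and a largest shift of 60 bases. That largest shift is at a CCT3-2 peak, bases 3292 to 3366, which overlaps 2 CCT3 peaks and so was paired with each of them. The bases covered in both lists numbered 2289, which were 94.1% of the CCT3 bases, 84.3% of the CCT3-2 bases and 25.3% of the span. These bases fell into 48 stretches with a median length of 37 bases, and 13 of at least 50 bases held 52.8% of them. The zone nearest to the 3′ end held 50.2% of the shared bases, the middle zone 25.5% and the zone nearest to the 5′ end 24.4%. The zones differ in length. Of their own bases, 36.7% were shared in the zone nearest to the 3′ end, 52.0% in the middle zone and 26.8% in the zone nearest to the 5′ end.

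The CCT3-2 list divided the same stretches into more peaks. When peaks that touch were joined, 73 CCT3-2 peaks became 51 blocks and the 44 CCT3 peaks stayed 44. Of the 51 blocks, 9 were made of several touching peaks, 31 in all, and the largest of 8. When peaks within 10 bases were joined, the numbers were 42 in CCT3 and 45 in CCT3-2. A single CCT3 peak of 186 bases, at bases 1904 to 2089, met 8 CCT3-2 peaks, with a log2 fold of 5.87 against values from 4.04 to 5.85. Accordingly the widest peak was 204 bases in CCT3 and 89 bases in CCT3-2.

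**Figure D3:**
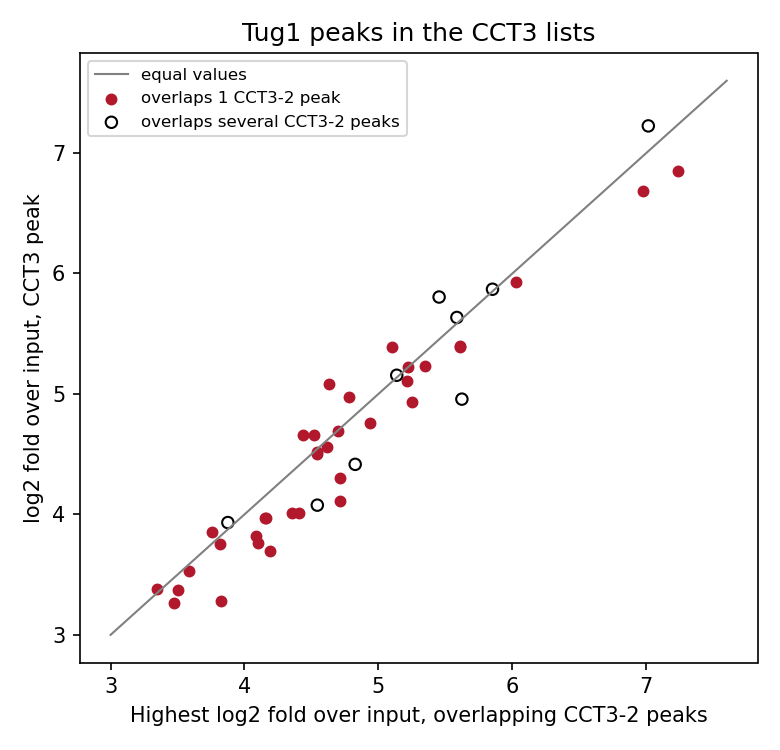
Log2 fold over input of each of the 44 CCT3 peaks in Tug1 (vertical axis) against the highest log2 fold of the CCT3-2 peaks that overlap it (horizontal axis). Open circles mark the 9 CCT3 peaks that overlap several CCT3-2 peaks and the line marks equal values. The points follow the line, with differences from −0.67 to 0.45.

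Folds in the lists ran in parallel along the RNA. Across the 44 CCT3 peaks, the log2 fold and the highest overlapping CCT3-2 fold had a Spearman correlation of 0.949, given as a description, since overlap chose the pairs and the samples share a library name. The difference, CCT3 minus CCT3-2, had a median of −0.11 and a range of −0.67 to 0.45, and 41 of 44 pairs lay within 0.5. Neither these differences nor the edge shifts were set beside those of other genes, so neither is shown to be particular to Tug1. Among the shared stretches, 3 had a highest log2 fold of at least 6 in both lists, at bases 1810 to 1889, 3673 to 3790 and 6238 to 6261. In the second of these, the CCT3-2 peak at bases 3755 to 3794 was lower, at 5.60. A further shared stretch, at bases 4167 to 4211, reached 6.03 in CCT3-2 and 5.93 in CCT3.

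The 6 CCT3-2 peaks without a CCT3 counterpart were short and lay close to CCT3 peaks. They were 12 to 38 bases wide, with log2 folds from 4.12 to 4.99, and from 7 to 64 bases away from the nearest CCT3 peak. Those nearest to the 5′ end lay at bases 451 to 462 and 1094 to 1111, with log2 folds of 4.62 and 4.99. The strand, given for CCT3-2 and not for CCT3, was minus for all 73 CCT3-2 peaks in the span, the strand of Tug1.

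Tug1 peaks had higher folds and −log10 p values than the lists as wholes. The median log2 fold was 4.61 for the 44 Tug1 peaks, against 4.05 for all CCT3 peaks, and 4.70 for the 73 Tug1 peaks, against 3.83 for all CCT3-2 peaks. The median −log10 p was 18.7, against 7.68, in CCT3, and 26.1, against 7.62, in CCT3-2. A stricter threshold, a log2 fold of 4 or more together with a −log10 p of 5 or more, was reached by 31 of 44 Tug1 peaks (70.5%), against 41.9% of all CCT3 peaks. In CCT3-2 it was reached by 60 of 73 (82.2%), against 34.3% of all peaks. The lowest −log10 p in Tug1 was 7.08 in CCT3 and 9.37 in CCT3-2. Tug1 peaks were also narrower, with a median width of 41 bases, against 59 for all CCT3 peaks, and 36 bases, against 57, in CCT3-2. Peaks of 1 RNA are not independent of each other, and these differences were not tested.

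The single PABPC1 peak lay in the longest space without CCT3 peaks. It covered bases 4621 to 4651 (chr11:3644164-3644194, 31 bases), on the minus strand, at 3.77 for the log2 fold and 3.56 for the −log10 p. The 1253 bases uncovered by both CCT3 lists, 4413 to 5665, enclose it, with 215 bases between it and the nearest CCT3 peak and 208 bases to the nearest CCT3-2 peak. It was 4379 bases from the 3′ end of the span, introns included, and near the middle of the span. Its values stand below the PABPC1 medians of 4.19 for the log2 fold and 10.4 for the −log10 p, and it missed the stricter threshold, which 49.5% of all PABPC1 peaks passed.

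Peaks also lay on either side of the span. The tables named Tug1 for 2 CCT3 and 2 CCT3-2 peaks downstream of its 3′ end, inside Gm11951, an annotated pseudogene at chr11:3632974-3638396 that starts 1388 bases from the end of Tug1. Their log2 folds were 3.07 and 4.68 in CCT3, against 3.16 and 4.69 in CCT3-2, with the nearest CCT3 peak 6397 bases outside the span, and both CCT3-2 peaks were on the minus strand. On the other side, Morc2a had 13 CCT3 peaks, all between 3649507 and 3651218, in its 5′ part, with log2 folds from 3.63 to 5.90. In CCT3-2 it had 19 peaks, 17 of them in this part and all 19 on the plus strand. Between the outermost Tug1 peak and the first Morc2a peak lay 867 bases without a peak in CCT3 and 867 in CCT3-2. PABPC1 had no peak in Gm11951 and 1 in Morc2a, towards the 3′ end of that gene, with a log2 fold of 4.12.

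Tug1 was among the genes most fully covered by CCT3 peaks for its length. Of 2318 genes with a CCT3 peak and a RefSeq span of at least 1000 bases, it ranked 8 by the share of the span covered, the median gene having 0.631% covered, and of 2986 such genes in CCT3-2 it ranked 11. Spans include introns, so long genes with small exons rank low. The genes ranked above it in CCT3 had spans of 1021 to 5007 bases and included Eid3 at 41.6%, Zbed6 at 41.0% and Junb, which encodes an AP-1 transcription factor, at 31.1%. Among genes of 5000 to 20000 bases, a range that was not planned, Tug1 ranked 2 by share and 1 by bases covered, in CCT3 and in CCT3-2. Over all spans of at least 1000 bases its rank by bases covered was 26 in CCT3 and 38 in CCT3-2. Among long noncoding RNA genes of at least 1000 bases it ranked 3 by bases covered in CCT3 and 4 in CCT3-2. By share it ranked 1 among them in both lists, of 151 in CCT3 and 203 in CCT3-2. The next gene by share was close in each list. In CCT3 it was Gm41556 at 26.6%, against 26.9% for Tug1, and in CCT3-2 Gm31090 at 29.5%, against 30.1%.

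**Figure D4:**
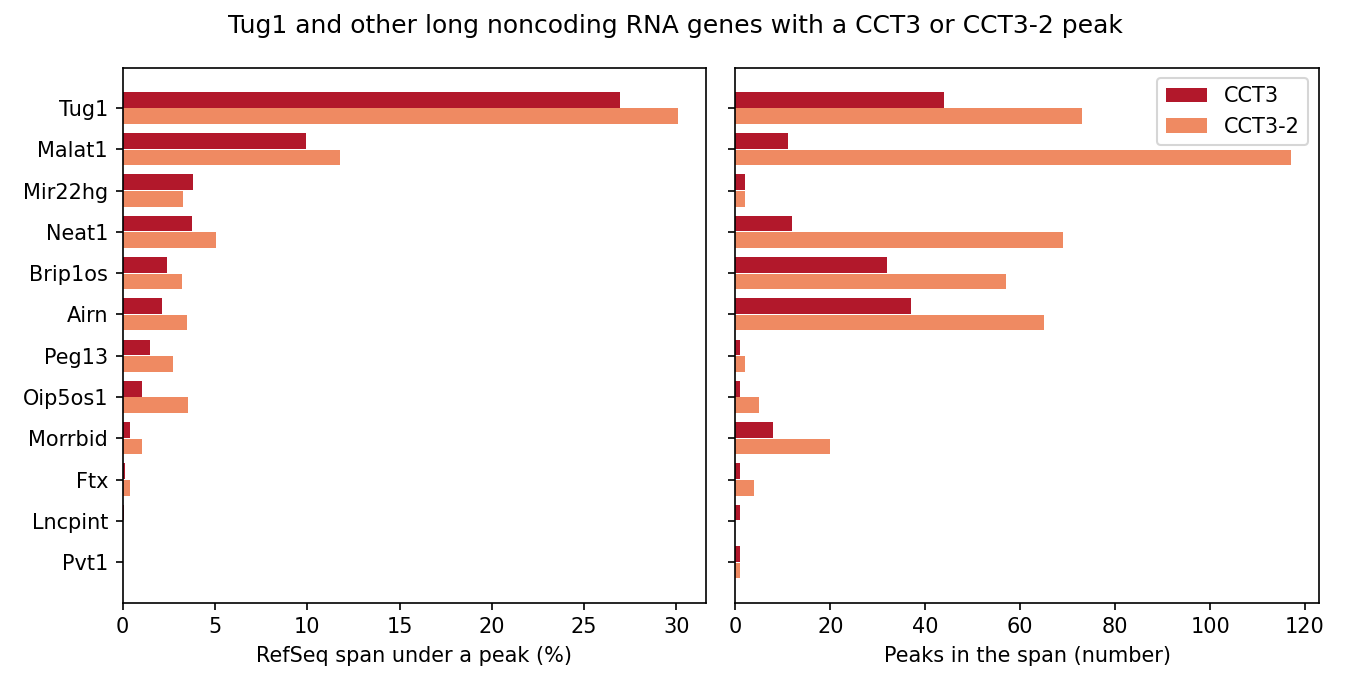
Tug1 and the other genes of a list of long noncoding RNAs with a CCT3 or CCT3-2 peak in their RefSeq span: share of the span under a peak (left, %) and number of peaks (right). Tug1 leads by share, at 26.9% in CCT3 and 30.1% in CCT3-2, whereas Malat1 has more CCT3-2 peaks, 117 against 73.

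Among 36 other listed long noncoding RNA genes, 11 had a CCT3 peak in their span (30.6%), 10 a CCT3-2 peak and 6 a PABPC1 peak. Over all 12731 long noncoding RNA genes in RefSeq the shares were 1.19%, 1.59% and 2.22%. The list was made with earlier results of these data known and was not matched to those genes for span or RNA level. The difference in shares is therefore no result about the listed genes. Spans can hold other genes, and by listed name the counts were 9 in CCT3, 8 in CCT3-2 and 2 in PABPC1. Within this list, the closest to Tug1 by covered share was Malat1, a nuclear speckle RNA, with 9.91% in CCT3 and 11.8% in CCT3-2. Its peak numbers were 11 in CCT3 and 117 in CCT3-2, so numbers of peaks differed between the lists far more than coverage did. Neat1, the scaffold of paraspeckles, had 3.77% covered in CCT3 and 5.07% in CCT3-2. Airn and Brip1os, whose spans overlap other genes, had 2.14% and 2.39% covered in CCT3, and the remaining genes of the list with a CCT3 peak were Mir22hg, Peg13, Oip5os1, Morrbid, Ftx, Lncpint and Pvt1, at 3.82% or less. PABPC1 peaks in the list lay in Snhg3, Mir17hg, Epb41l4aos, Dleu2, Pvt1 and Snhg14, of which Pvt1 was the 1 gene that had a CCT3 peak as well. The tables gave another name to the PABPC1 peaks in Snhg3, Mir17hg, Dleu2 and Snhg14, and to the CCT3 peaks in Ftx and Mir22hg, genes whose spans all hold other genes. Of the CCT3 peaks in the spans of Airn and Brip1os, 27 of 37 and 15 of 32 were listed under those names.

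The genes closest to Tug1 in numbers of peaks over the 3 lists, by listed name among 7317 genes, were Rbm15, Ube2e2, Smim8, Wwox and Amer1, of which Ube2e2 and Wwox had all their CCT3 peaks in introns and the others none. Likeness was the Euclidean distance of log2(number + 1) over the lists. Rbm15, which encodes an RNA-binding protein of the m6A writer complex, was nearest at a distance of 0.798, with 28 CCT3 peaks, 57 CCT3-2 peaks and 1 PABPC1 peak. Of its 28 CCT3 peaks 26 were in exons and 2 in the 3′ UTR. Ube2e2, a ubiquitin-conjugating enzyme gene, followed at 0.929 with 36, 48 and 2 peaks, all 36 CCT3 peaks being intronic. The peaks listed under Smim8 (distance 1.02, with 41, 70 and 3 peaks) lay in the span of Zfp292 for all 41 CCT3 and all 70 CCT3-2 peaks, and the 41 CCT3 peaks were exonic. Wwox (1.02) had 52, 82 and 0 peaks, with the 52 CCT3 peaks in introns, and Amer1 (1.07) had 38, 62 and 0, its 38 CCT3 peaks being split between the 3′ UTR (18), the 5′ UTR (2) and exons outside the UTRs (18). Counts of peaks depend on how stretches were divided, and the distances carry no test.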

How the data were processed

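The 3 peak lists are the authors' deposited tables, 1 each for the samples CCT3, CCT3-2 and PABPC1; the input samples have no list of their own. The build mm10 and bcl2fastq 2.20 are in the submitters' processing notes. Aligner, peak caller and treatment of duplicates: not given in the sources used here. The deposited log2 fold per peak, taken as immunoprecipitation over input, and the deposited −log10 p, which stops at 400, are the authors' values. They are named in the CCT3 file header, and in the other tables were read from unnamed columns by their ranges. They were used to describe, rank and filter peaks within a list; folds of overlapping CCT3 and CCT3-2 peaks were also set side by side as a description.

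Peaks were assigned to Tug1 by at least 1 base of overlap with its RefSeq span (GRCm38.p6), regardless of strand. Covered bases, gaps, clusters (peaks at most 100 bases apart) and zones (at most 1000 bases apart, chosen after seeing the data) were computed with Python 3.11.15, numpy 2.4.6 and pandas 2.3.3, and figures drawn with matplotlib 3.10.9. Gene spans came from the RefSeq table. On simulated spans the interval steps recovered the placed blocks in 200 of 200. No test was run, since there is 1 list per protein apart from CCT3-2. Gene, gene lists and alternatives were chosen with earlier results of these data known. Genes named for covered share were chosen after their values were seen. Other named genes are Tug1's neighbours, listed long noncoding RNAs with a peak, and the 5 nearest in peak numbers. Base composition of peaks was not analysed, as no genome sequence was used here.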

Additional observations from a re-analysis of the deposited data

How the results depend on the processing

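Of 31 alternative values for 12 results, 21 stayed near the main value. That means within 1.5 times the main count or within the Wilson 95% interval of the main share, which covers counting error only. For covered shares that interval treats each base as independent although bases lie in blocks, so it is too narrow. The 21 include settings that could not change a value. All 73 CCT3-2 peaks in the span passed a log2 fold and a −log10 p of 3 and lay on the minus strand. No CCT3 peaks touched each other. A fall from 44 to 31 CCT3 peaks also counted as staying. No paired analysis was possible because the lists hold peaks and not sample values to pair. With a log2 fold of at least 4 and a −log10 p of at least 5, fewer peaks remain: the covered share was 22.3% for CCT3 and 25.0% for CCT3-2, and no PABPC1 peak remained in Tug1 (0), while the longest CCT3 gap was still 1260 bases. Joining peaks within 10 bases gave 45 CCT3-2 peaks. The 15 CCT3 clusters became 24 with a gap of at most 50 bases, 7 with 200 and 3 with 1000, the last chosen after seeing the data. Without the CCT3 list, CCT3-2 covered 30.1%. With 50% reciprocal overlap, 81.8% of CCT3 peaks in Tug1 overlapped a CCT3-2 peak. The share over all CCT3 peaks at that setting is not given here, and the cause was not tested. Among spans of 5000 to 20000 bases, a setting that was not planned, the rank by covered share was 2 in place of 8. The planned comparison of base composition was not run.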
